A study of Homo sapiens with 12 samples.

Results

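The genes described here are 10 noncoding small nucleolar RNA (snoRNA) host genes, SNHG1, SNHG3, SNHG5, SNHG6, SNHG8, SNHG12, SNHG15, SNHG16, GAS5 and ZFAS1. They were taken by symbol from the rows of the deposited gene table that lie on assembled chromosomes, and they are 10 of its 46931 rows. The rule uses names alone, although the genes were proposed with earlier results of these data known. All 10 passed the filter on low counts. The cells were MCF10A, an immortalized, non-tumorigenic human mammary epithelial line grown with horse serum, insulin, hydrocortisone and epidermal growth factor. They were transfected with 22 nM of a negative control siRNA or with 11 nM of 2 siRNA sets against the transcriptional coactivators YAP and TAZ. After 48 h the medium was changed to one with DMSO or with 5 µM XMU-MP1, an inhibitor of the Hippo kinases MST1 and MST2, for 6 h. The 4 resulting groups held 3 poly(A)-selected RNA-seq libraries each, lettered a, b and c. All 4 groups share the line, its wild-type label and a transfected siRNA, so none is an untransfected control. The labels do not say whether the lettered libraries came from separate cultures, so each p-value measures only the spread between these samples, which may be technical.

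Small nucleolar RNAs guide the chemical modification of ribosomal and spliceosomal RNA, box C/D snoRNAs (SNORD genes) directing 2′-O-methylation and most box H/ACA snoRNAs (SNORA genes) pseudouridylation. In vertebrates most of them lie in introns and are released when the host transcript is spliced and the excised intron is trimmed. The spliced exons of these hosts are not known to encode a functional protein, many of them begin with a run of pyrimidines, as ribosomal protein mRNAs do, and several, GAS5 among them, are cleared by nonsense-mediated decay because ribosomes stop early on them. The host's spliced level therefore reads both its synthesis and its decay, and poly(A) selection favours that spliced RNA over mature snoRNAs, which carry no poly(A) tail.

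In these data all 10 hosts had a lower level in every knockdown library treated with DMSO than in any control library treated with DMSO, a separation that 27.9% of all tested genes showed. By the test across all genes 5 of them fell, against 16.0% of all genes. The same test called none of them for XMU-MP1 in control cells, while after the knockdown SNHG1 and SNHG12 rose, against 4.19% of all genes.

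The label held against the annotation, as the table has 36 snoRNA rows inside the 10 genes on the same strand, with at least 1 in each host. SNHG1 (chr11:62851978-62855885, minus strand) held 8 of these rows and GAS5 (chr1:173863899-173867991, minus) held 11. SNHG12 (chr1:28578538-28582983, minus) held 4, while SNHG16 (chr17:76557764-76565348, plus) and ZFAS1 (chr20:49278178-49289260, plus) held 3 each. SNHG3 (chr1:28505943-28510892, plus) and SNHG5 (chr6:85677007-85678733, minus) held 2 each. SNHG8 (chr4:118278762-118279823, plus), SNHG15 (chr7:44983023-44986696, minus) and SNHG6 (chr8:66921690-66925541, minus) held 1 each. These coordinates are those of the deposited table, whose build is GRCh38.p13.

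Library depth ran from 25246464 to 67953633 counts in 11 libraries and was 8243351 in library c of YAP/TAZ siRNA with XMU-MP1, which stood apart. In that library ribosomal RNA rows took 35.0% of the counts, and the single gene SLCO5A1 took 12.6%, so the counts of called hosts and of called snoRNA rows in its comparisons are given with and without it. Ribosomal RNA also moved with the knockdown, at 1.05% to 2.15% in control siRNA with DMSO and 1.86% to 8.35% after the knockdown, and at 1.02% to 2.52% and 2.66% to 5.38% with XMU-MP1 outside library c. SLCO5A1 took 0.29% to 0.93% in control siRNA with DMSO and 0.23% to 5.72% after the knockdown, the highest in library a, the shallowest of that group. The part of these shares in the results on the hosts was not tested. The 10 hosts together made up 0.0234% of its counts, against 0.0358% to 0.121% in the others. YAP1 lay at 193 to 223 CPM (counts scaled to library size, with TMM normalization) in control siRNA with DMSO and at 7.84 to 12.6 CPM after the knockdown, and WWTR1, which encodes TAZ, at 24.0 to 38.2 and 3.66 to 4.47 CPM. With XMU-MP1 YAP1 lay at 132 to 142 and 3.81 to 6.63 CPM, and WWTR1 at 56.0 to 60.4 and 0 to 2.11 CPM. The knockdown groups did not overlap their controls for either target. None of 8 mammary and basal epithelial markers was at 0 in a whole group, and their summed level was 5520 to 15710 CPM. The sum hides opposite moves. From control siRNA with DMSO to the knockdown with DMSO mean KRT17 went from 690 to 5681 CPM and CDH1 from 190 to 595 CPM. KRT5 went from 4620 to 1536 CPM and KRT18 from 1748 to 474 CPM, and the means of KRT14, EPCAM, TP63 and ITGB4 were also lower. The leukocyte markers summed to 44.1 to 61.3 CPM in control siRNA with DMSO and 83.7 to 154 CPM after the knockdown, and to 19.98 to 29.5 and 69.8 to 141 CPM with XMU-MP1. CD68 made up much of this, at 7.63 to 14.4 CPM in control siRNA with DMSO and 60.4 to 112 CPM after the knockdown, and CD14 was at 36.5 to 52.6 and 23.3 to 41.5 CPM. PTPRC and CD3E were at 0 in all 6 control siRNA libraries, and PTPRC reached 5.59 CPM in library c of YAP/TAZ siRNA with XMU-MP1. The 5 fibroblast markers summed to 11.3 to 26.4 CPM in the control siRNA libraries, 22.8 to 62.0 CPM after the knockdown with DMSO and 23.0 to 132 CPM after the knockdown with XMU-MP1, where COL1A2 reached 33.4 CPM in library c. The part of these markers in the results on the hosts was not tested. In bulk RNA of this kind a change in the number of cells and a change of RNA per cell cannot be told apart.

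Levels can be compared between genes only per length, in FPKM, fragments scaled to gene length and library size. On that scale SNHG5, which was first found at a chromosome break in a B-cell lymphoma, was the most abundant of the 10 in each of the 4 groups. Its level in control siRNA with DMSO was 224 ± 39.5 FPKM (SD, n = 3), and its 3 libraries lay above every library of the next gene, GAS5, at 115 ± 27.9 FPKM. GAS5, ZFAS1 at 103 ± 18.3 FPKM and SNHG1 at 99.8 ± 23.2 FPKM overlapped each other in that order. Below them SNHG16 at 63.5 ± 12.2, SNHG8 at 55.1 ± 3.51 and SNHG6 at 51.2 ± 4.26 FPKM also overlapped one after the other. The lowest were SNHG3 at 14.1 ± 3.13, SNHG15 at 13.3 ± 1.64 and SNHG12 at 9.78 ± 0.479 FPKM. SNHG3 lay below every library of SNHG6 and SNHG12 below every library of SNHG15, while SNHG3 and SNHG15 overlapped.

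The order changed mainly for SNHG1. It was the fourth in control siRNA with DMSO, the second with XMU-MP1 at 147 ± 78.2 FPKM, and the seventh after the knockdown with DMSO at 23.5 ± 4.11 FPKM. The second place was not a clear one. In control siRNA with XMU-MP1 SNHG1, GAS5 and ZFAS1 overlapped in that order, and SNHG1 was at 218, 63.4 and 160 FPKM. In the group of YAP/TAZ siRNA with XMU-MP1 neighbours in the order overlapped at every place, and the SD of SNHG5 alone was 71.5 FPKM around a mean of 123 FPKM.

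The start regions of these genes are printed because a pyrimidine run at the start is the sequence feature this gene class is known for. RefSeq promoters (GRCh38.p14, 250 bases before to 50 after the annotated start) were matched for 8 of the 10, all but SNHG6 and SNHG15. Each stretch runs 5′ to 3′ from 40 bases before the start through the first 20 transcribed bases, and the capitals mark the longest run of C and T within 10 bases of the start, cut off where the run leaves that window.
SNHG1: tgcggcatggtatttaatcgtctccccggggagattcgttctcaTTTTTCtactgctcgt
SNHG3: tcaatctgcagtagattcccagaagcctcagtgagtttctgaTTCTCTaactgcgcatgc
SNHG5: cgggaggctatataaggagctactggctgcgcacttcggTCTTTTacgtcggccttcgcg
SNHG8: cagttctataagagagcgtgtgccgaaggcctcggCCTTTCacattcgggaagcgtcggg
SNHG12: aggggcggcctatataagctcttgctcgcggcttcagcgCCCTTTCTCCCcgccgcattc
SNHG16: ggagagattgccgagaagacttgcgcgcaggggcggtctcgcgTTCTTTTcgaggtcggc
ZFAS1: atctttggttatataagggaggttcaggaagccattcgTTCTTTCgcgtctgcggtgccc
GAS5: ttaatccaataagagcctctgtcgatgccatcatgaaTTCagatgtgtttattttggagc

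In that order they lie at chr11:62855866-62855925 (minus strand), chr1:28505903-28505962 (plus), chr6:85678714-85678773 (minus), chr4:118278722-118278781 (plus), chr1:28581854-28581913 (minus), chr17:76557724-76557783 (plus), chr20:49278602-49278661 (plus) and chr1:173869026-173869085 (minus). A run of at least 6 pyrimidines stood within 10 bases of the start in 7 of the 8, against 22.2% of the 35116 promoters in the RefSeq table. The same 7 held a run of at least 4 and of at least 5, against 57.8% and 37.3%, and 3 of the 8 held one of at least 7, against 14.0%. GAS5 had a run of 3, at a RefSeq start that lies 1054 bases from the 5′ end of its row in the deposited table. The 2 starts also differed for SNHG12, by 1110 bases, and for ZFAS1, by 464 bases. The E-box CACGTG, a palindrome bound by MYC with MAX, was in 0 of the 8 windows and in 7.26% of all. CATTCC or its reverse complement GGAATG, the core bound by the TEAD partners of YAP and TAZ, was in those of SNHG3 and SNHG12 and in 14.0% of all. A match or its absence describes the letters in these windows and nothing about binding.

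The first comparison asked what loss of YAP and TAZ did in cells kept in DMSO. SNHG1, SNHG3, SNHG12, SNHG5 and SNHG16 fell, by 3.73, 3.43, 2.79, 1.83 and 1.58 times, and no host rose, where 16.1% of all tested genes were called higher. The remaining 5, SNHG15, SNHG8, GAS5, SNHG6 and ZFAS1, had log2 fold changes from -1.75 to -0.41 and did not pass the adjusted threshold of 0.05. Of all 18143 genes tested 16.0% were called lower, against 5 of the 10 hosts. The median log2 fold change of the 10 was -0.85, that of all tested genes 0.02. For every one of the 10 the 3 knockdown libraries lay below the 3 control libraries, a pattern that 27.9% of all tested genes showed in this direction. Without library c of YAP/TAZ siRNA with XMU-MP1, which is not in either group but shares the estimate of the spread, 9 of the 10 were called lower, all but ZFAS1, against 18.8% of all genes in that fit.

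**Figure D1:**
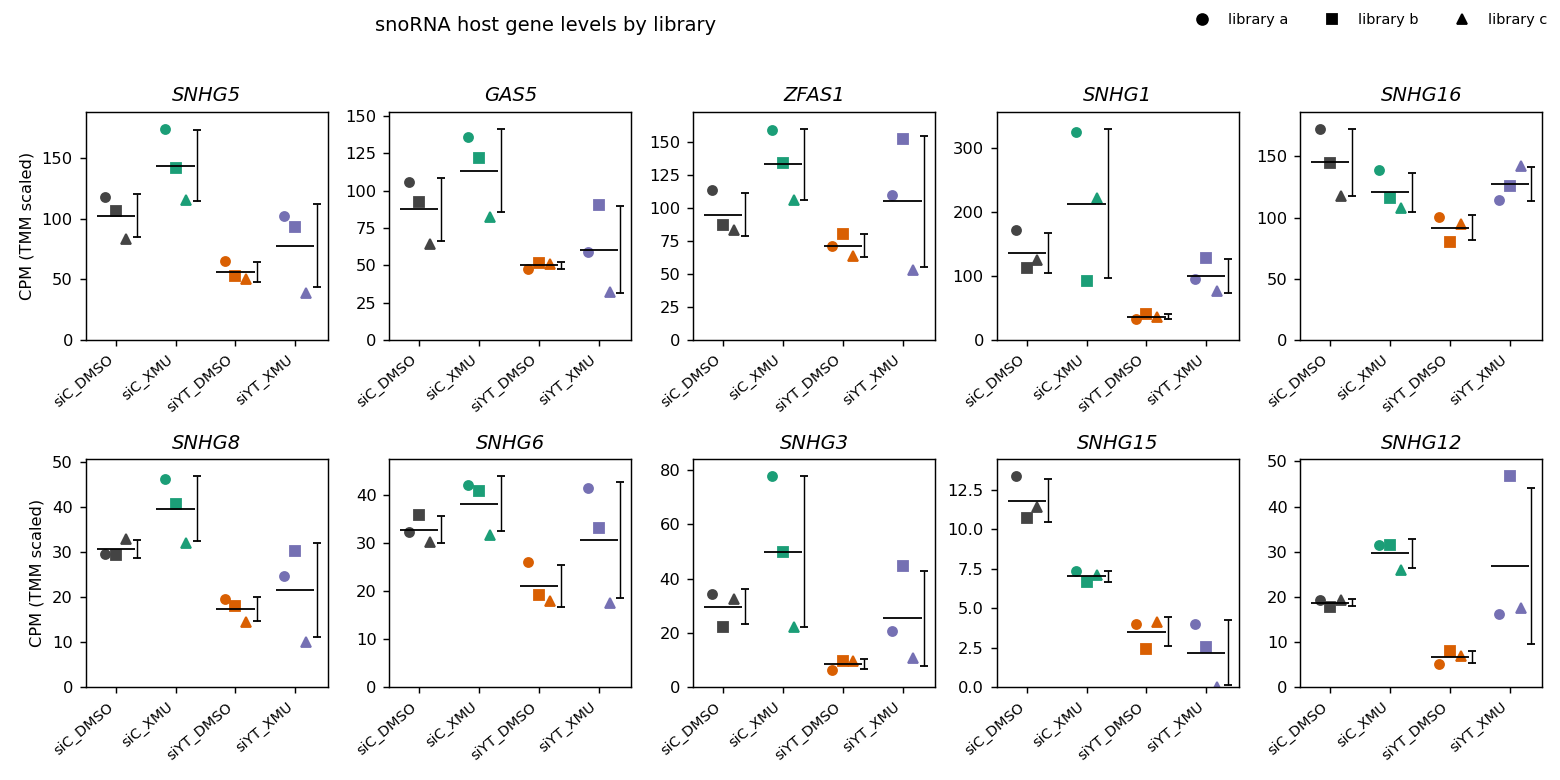
Levels of the 10 snoRNA host genes in CPM (TMM scaled) by library, 1 panel per gene, with the 3 libraries of each group as symbols, the group mean as a line and ± 1 SD as a bar beside it. siC is control siRNA, siYT is YAP/TAZ siRNA and XMU is XMU-MP1. In each panel the 3 siYT_DMSO libraries sit below the 3 siC_DMSO libraries, and library c of siYT_XMU is the lowest of its group for all genes but SNHG16 and SNHG12.

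SNHG1, the gene first described as making its snoRNAs from introns while its exons encode nothing, moved furthest. It was at 172, 113 and 125 CPM in libraries a, b and c of control siRNA with DMSO and at 32.4, 40.7 and 36.6 CPM after the knockdown. The lowest control library was thus well above the highest knockdown library. The log2 fold change was -1.90 ± 0.37 (SE, n = 3 per group, adjusted p = 0.00209 by edgeR's quasi-likelihood test with Benjamini-Hochberg adjustment), and SNHG1 was called lower in all 21 alternative analyses.

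SNHG12, host of 3 box H/ACA snoRNAs and SNORD99, had the tightest control group of the 10. Its levels were 19.3, 17.8 and 19.2 CPM in control libraries and 5.21, 7.95 and 6.98 CPM in knockdown libraries. The groups were far apart, and the log2 fold change was -1.48 ± 0.36 (SE, adjusted p = 0.00775), again with a call in all 21 alternatives. SNHG3, which carries both copies of the pre-rRNA processing RNA SNORA73, was at 34.4, 22.4 and 32.4 CPM against 6.51, 9.67 and 9.74 CPM. Control library b was the lowest of its 3, still above all knockdown libraries, and the log2 fold change was -1.78 ± 0.51 (SE, adjusted p = 0.0177). The call was lost without control library a (adjusted p = 0.0536) and without knockdown library a (adjusted p = 0.0681).

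SNHG16, host of the 3 SNORD1 genes, changed little in size but with small error. Its levels were 172, 145 and 118 CPM against 100, 80.1 and 95.2 CPM. Control library a was the highest, and the groups did not overlap (log2 fold change -0.66 ± 0.18 (SE), adjusted p = 0.0124). Without control library a the adjusted p was 0.0656, and without knockdown library b it was 0.0573. SNHG5 was at 118, 106 and 83.1 CPM against 65.0, 52.5 and 50.03 CPM. Its groups did not overlap, but its call was the least firm, with a log2 fold change of -0.87 ± 0.30 (SE), an adjusted p of 0.0445, and adjusted p-values from 0.00337 to 0.137 over the 21 alternatives, of which 10 lost the call.

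Among the 5 that missed the threshold SNHG15, a short-lived host of SNORA9, had the largest difference and the largest error. It was at 13.3, 10.7 and 11.4 CPM in controls and at 4.0, 2.44 and 4.10 CPM after the knockdown, and the log2 fold change was -1.75 ± 0.67 (SE, adjusted p = 0.0661). The groups were well apart, and the large error came with a count of 0 in library c of YAP/TAZ siRNA with XMU-MP1. Without that library the log2 fold change was -1.75 ± 0.28 (SE, adjusted p = 5.93e-04). GAS5, named for its rise in growth-arrested cells, was at 106, 92.3 and 64.5 CPM against 47.4, 51.7 and 51.1 CPM. Control library c came near the knockdown libraries without overlapping them, and the adjusted p was 0.0749. Without library b of YAP/TAZ siRNA with XMU-MP1 it was 0.0347. SNHG8, at 29.7, 29.4 and 33.0 against 19.5, 18.1 and 14.4 CPM, had a log2 fold change of -0.82 ± 0.32 (SE, adjusted p = 0.0700, and 0.0481 without the same library b). SNHG6, at 32.3, 35.8 and 30.2 against 26.1, 19.3 and 17.9 CPM, had one of -0.64 ± 0.28 (SE, adjusted p = 0.103). ZFAS1, at 114, 87.7 and 83.8 against 71.0, 80.5 and 63.6 CPM, had the smallest, -0.41 ± 0.31 (SE, adjusted p = 0.352). Its groups were separated by only a few CPM, and it was called in none of the 21 alternatives.

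**Figure D2:**
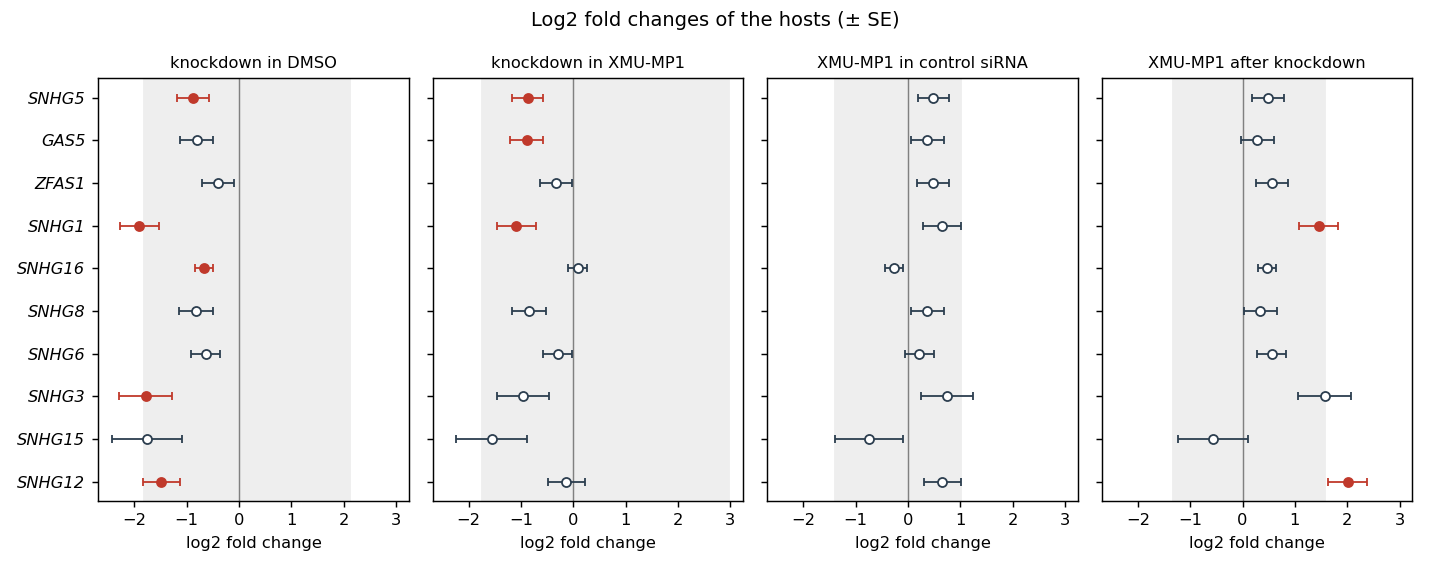
Log2 fold changes of the 10 hosts with their SE in the 4 comparisons, filled red where the adjusted p was under 0.05 and open otherwise. The grey band spans the 10th to the 90th percentile of all 18143 tested genes. All 10 values lie below 0 for the knockdown in DMSO and 9 of 10 lie above 0 for XMU-MP1 after the knockdown.

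The same knockdown was compared in cells that had received XMU-MP1. Here SNHG1, SNHG5 and GAS5 fell, by 2.13, 1.83 and 1.86 times, against 18.6% of all tested genes called lower, and no host rose, against 17.7% called higher. The median log2 fold change of the 10 was -0.87 and that of all genes 0.04. Of the 10, 3 had knockdown libraries that all lay below the controls (SNHG5, SNHG8 and SNHG15), against 25.9% of all tested genes. Without library c only SNHG15 was called lower, with 18.7% of all genes, and the median of the 10 was -0.55.

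SNHG1 with XMU-MP1 was at 325, 92.6 and 222 CPM in control siRNA and at 95.3, 128 and 76.7 CPM after the knockdown. Control library b lay inside the range of the knockdown libraries, so the groups overlapped although the test called the gene (log2 fold change -1.09 ± 0.36 (SE), adjusted p = 0.0349). Without control library a, the highest, it was -0.65 with an adjusted p of 0.158, and without control library c, knockdown library a or knockdown library c the adjusted p was 0.0827, 0.0866 and 0.102. SNHG5 was at 173, 142 and 115 CPM against 102, 92.7 and 38.7 CPM, with no overlap and the lowest value in library c (log2 fold change -0.88 ± 0.30 (SE), adjusted p = 0.0401). Without library c it was -0.57 ± 0.21 (SE, adjusted p = 0.0514). GAS5 was at 136, 122 and 82.2 CPM against 58.7, 90.5 and 32.3 CPM, where knockdown library b exceeded control library c. Its log2 fold change was -0.89 ± 0.32 (SE, adjusted p = 0.0463), and -0.61 ± 0.27 (SE, adjusted p = 0.101) without library c. Of its 21 alternatives 12 lost the call.

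The other hosts were not called. SNHG8 was at 46.3, 40.8 and 32.0 CPM against 24.7, 30.3 and 9.95 CPM, and SNHG15 at 7.34, 6.66 and 7.09 CPM against 4.02, 2.55 and 0 CPM. Both sets of groups were apart, and both genes had their lowest value in library c, where a count of 0 allows up to 0.622 CPM. SNHG8 had a log2 fold change of -1.17 with an adjusted p of 0.0228 without knockdown library b, and SNHG15 one of -2.19 with an adjusted p of 0.0471 without knockdown library a. SNHG16, at 139, 116 and 108 against 114, 126 and 142 CPM, and SNHG12, at 31.5, 31.6 and 25.9 against 16.2, 46.7 and 17.6 CPM, overlapped their controls. Their log2 fold changes were 0.08 ± 0.17 and -0.13 ± 0.35 (SE), and the sign of each turned in 4 and 2 of the 21 alternatives. Without knockdown library b, the highest, SNHG12 was at -0.82 with an adjusted p of 0.0201. SNHG3 at -0.96 ± 0.50, ZFAS1 at -0.33 ± 0.31 and SNHG6 at -0.30 ± 0.28 (log2 fold change with SE) also had overlapping groups. Without library c they were -0.62, -0.02 and -0.04, and without knockdown library b SNHG3 was at -1.65 with an adjusted p of 0.0265.

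XMU-MP1 was next compared with DMSO in control siRNA cells. No host was called in either direction by edgeR's test, where 4.0% of all genes were called higher and 5.26% lower. None of the 10 reached an unadjusted p under 0.05 either, and DESeq2 called 0. Limma-voom with sample weights, and edgeR fitted to these 2 groups alone, each called SNHG12 higher and SNHG15 lower (adjusted p = 0.0264 and 0.0405 by voom). Of the 10 log2 fold changes 8 were above 0, as they were in every alternative run, and the median was 0.43 against -0.02 for all genes.

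SNHG12 went from a mean of 18.8 ± 0.826 to 29.7 ± 3.27 CPM (SD, n = 3), and its 3 XMU-MP1 libraries all lay above the DMSO libraries, as they did for 18.6% of tested genes. SNHG15 went the other way, from 11.8 ± 1.38 to 7.03 ± 0.343 CPM, with no overlap, a pattern found in 22.1% of tested genes. The log2 fold changes were 0.66 ± 0.35 and -0.75 ± 0.65 (SE), with adjusted p-values of 0.292 and 0.564. SNHG16 was the other host with a negative value, -0.27 ± 0.17 (SE, adjusted p = 0.406). SNHG1 had a log2 fold change of 0.64 ± 0.36 (SE), and its range over the alternatives, 0.21 to 1.0, was set by leaving out XMU-MP1 library a and b respectively. The libraries of SNHG3 with XMU-MP1 lay at 77.8, 49.9 and 22.2 CPM, and library c was below all 3 DMSO libraries, at 34.4, 22.4 and 32.4 CPM.

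XMU-MP1 was then compared with DMSO in the knockdown cells. SNHG12 and SNHG1 rose, by 4.02 and 2.74 times, and 4.19% of all tested genes were called higher. No host fell, where 7.92% of all tested genes did. The median log2 fold change of the 10 was 0.52 against 0.02 for all genes, with 9 of 10 above 0. On the log2(FPKM + 1) scale, where the median of all genes was itself -0.18, 6 of 10 were above 0. For SNHG1, SNHG3, SNHG12 and SNHG16 every XMU-MP1 library lay above every DMSO library, as for 10.5% of tested genes. Without library c 7 hosts were called higher, SNHG8, SNHG1, SNHG5, ZFAS1, SNHG6, SNHG3 and SNHG12, against 6.65% of all genes, and the median was 0.81.

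SNHG12 went from 5.21, 7.95 and 6.98 CPM to 16.2, 46.7 and 17.6 CPM. Library b was far above the other 2, which still lay at more than any DMSO library. The log2 fold change was 2.01 ± 0.37 (SE, adjusted p = 0.00484), with adjusted p-values from 3.36e-07 to 0.0445 over the 21 alternatives, so the call held in each. SNHG1 went from 32.4, 40.7 and 36.6 to 95.3, 128 and 76.7 CPM, with all 3 treated libraries above the untreated ones. Its log2 fold change was 1.46 ± 0.37 (SE, adjusted p = 0.0244), and 7 of the 21 alternatives lost the call, with adjusted p-values up to 0.149. Compared with control siRNA in DMSO, at 113 to 172 CPM, library b of the doubly treated cells had reached the range of SNHG1 in the controls and the other 2 had not.

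SNHG3 went from 6.51, 9.67 and 9.74 to 20.8, 44.6 and 10.8 CPM. Library c barely exceeded the untreated libraries, and the log2 fold change of 1.57 ± 0.50 (SE) had an adjusted p of 0.0652. It was 1.91 ± 0.47 (SE, adjusted p = 0.0229) without library c. SNHG16 went from 100, 80.1 and 95.2 to 114, 126 and 142 CPM, with library c the highest of its group, unlike the other 9 hosts (log2 fold change 0.47 ± 0.18 (SE), adjusted p = 0.104). ZFAS1, the host of the SNORD12 family, had 110, 153 and 53.0 CPM after XMU-MP1 and a log2 fold change of 0.56 ± 0.31 (SE), which was 0.87 ± 0.21 (SE, adjusted p = 0.0221) without library c. SNHG6 at 0.55 ± 0.28, SNHG5 at 0.49 ± 0.30, SNHG8 at 0.34 ± 0.32 and GAS5 at 0.28 ± 0.32 (log2 fold change with SE) all had library c as their lowest treated value, and SNHG5, SNHG8 and GAS5 turned negative on the FPKM scales, GAS5 also without library b. SNHG15 alone was below 0, at -0.56 ± 0.66 (SE).

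The sum of the 10 hosts shows both treatments at once. In control siRNA with DMSO it was 810, 660 and 601 CPM, and with XMU-MP1 1138, 775 and 752 CPM. After the knockdown it was 377, 363 and 350 CPM with DMSO and 588, 747 and 399 CPM with XMU-MP1. The knockdown libraries in DMSO lay close together below all others, and the 2 XMU-MP1 groups had the wider spread.

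The interaction asked whether XMU-MP1 acted differently with and without the knockdown. No host was called by edgeR's test, against 0.86% of all genes called higher and 1.73% lower, and 2 had an unadjusted p under 0.05. These were SNHG16, with a difference of log2 fold changes of 0.74 ± 0.25 (SE, adjusted p = 0.131), and SNHG12, with 1.35 ± 0.50 (SE, adjusted p = 0.174). DESeq2 called both higher, with adjusted p-values of 0.0438 and 0.0487, and voom called 0. The rise of SNHG1 after the knockdown, called there and not in control cells, was not shown to differ between them (interaction 0.81 ± 0.51 (SE), adjusted p = 0.436).

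The snoRNA rows inside the hosts were then set beside their hosts. Of the 36, 28 are box C/D and 8 box H/ACA, and in the GENCODE v29 annotation (GRCh38) all 36 were intronic in at least 1 host transcript while 27 also lay within an exon of another. A read in such a row can therefore come from the mature snoRNA, from unspliced host RNA or from a host isoform that keeps the intron, and these cannot be told apart in the table. Of the box C/D snoRNAs that were called, SNORD27, SNORD28, SNORD22, SNORD30 and SNORD99 are printed, with those of ZFAS1, whose 3 copies share a common core. They run 5′ to 3′ as GENCODE v29 transcripts, and the capitals mark an exact C box (TGATGA) near the start and an exact D box (CTGA) near the end, the motifs that bind the snoRNP proteins.
SNORD27: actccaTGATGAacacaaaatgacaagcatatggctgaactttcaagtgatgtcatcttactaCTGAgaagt
SNORD28: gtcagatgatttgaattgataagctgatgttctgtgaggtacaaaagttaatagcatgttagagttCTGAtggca
SNORD22: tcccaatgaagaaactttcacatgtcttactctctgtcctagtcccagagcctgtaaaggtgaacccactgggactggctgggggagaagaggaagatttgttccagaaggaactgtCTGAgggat
SNORD30: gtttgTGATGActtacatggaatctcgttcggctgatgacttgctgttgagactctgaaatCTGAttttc
SNORD99: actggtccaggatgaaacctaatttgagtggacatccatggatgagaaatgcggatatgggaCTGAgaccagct
SNORD12: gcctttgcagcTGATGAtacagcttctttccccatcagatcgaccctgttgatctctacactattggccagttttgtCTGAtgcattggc
SNORD12B: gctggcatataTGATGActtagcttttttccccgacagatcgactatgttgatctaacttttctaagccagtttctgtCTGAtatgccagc
SNORD12C: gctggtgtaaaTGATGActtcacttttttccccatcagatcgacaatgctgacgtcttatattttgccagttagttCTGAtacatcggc

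The first 4 come from introns of SNHG1, at chr11:62855012-62855083, chr11:62854621-62854695, chr11:62852910-62853035 and chr11:62853663-62853732 (minus strand), and SNORD99 from SNHG12 at chr1:28578749-28578822 (minus). The ZFAS1 snoRNAs lie at chr20:49280683-49280772, chr20:49280319-49280409 and chr20:49278940-49279028 (plus strand). The longest stretch that all 3 share is cagatcgac, 9 bases, and the 3 SNORD1 genes of SNHG16 share agttatccctgtctgaa, 17 bases.

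Of the 36 rows 27 had enough counts to be tested. The knockdown in DMSO lowered 7 of them, against 16.0% of all tested genes, and raised none, and 11 had an unadjusted p under 0.05. DESeq2 called 10 lower and 0 higher. The 7 were SNORD22, SNORD27, SNORD28 and SNORD29 of SNHG1, SNORD44 and SNORD47 of GAS5, and SNORD99 of SNHG12. The median log2 fold change of the 27 was -1.38, against 0.02 for all genes, and 25 were below 0. The 2 above 0 were SNORA73A at 0.265 and SNORA73B at 0.403, neither of them called. They are the only snoRNA rows of SNHG3, which was itself called lower in this comparison. Of 122 tested snoRNA rows outside these hosts 5 were called lower and 1 higher, 87 were below 0, and their median was -0.75. Without library c of YAP/TAZ siRNA with XMU-MP1 11 of the 27 were called lower, against 18.8% of all genes in that fit. SNORD44 had 23, 19 and 25 counts in control siRNA with DMSO and 0, 2 and 3 after the knockdown. It passed the filter on low counts through control libraries alone. Rows that passed in this way could be called lower but hardly higher, so the calls and medians of snoRNA rows can be partly set by the filter.

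SNORD22, inside SNHG1, had 257, 219 and 287 counts in control siRNA with DMSO and 9, 63 and 70 after the knockdown, and its log2 fold change was -1.93 ± 0.44 (SE, adjusted p = 0.00554). Knockdown library a, the shallowest of its group, was far the lowest. SNORD27 had 57, 81 and 64 against 2, 5 and 9 counts (log2 fold change -3.03 ± 0.77 (SE), adjusted p = 0.00964), and SNORD29 had 124, 151 and 130 against 4, 22 and 38 counts (-2.16 ± 0.50 (SE), adjusted p = 0.00592). For each of these 3 rows, picked from the 7 called, the knockdown libraries lay below the controls, as for 27.9% of all tested genes.

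**Figure D3:**
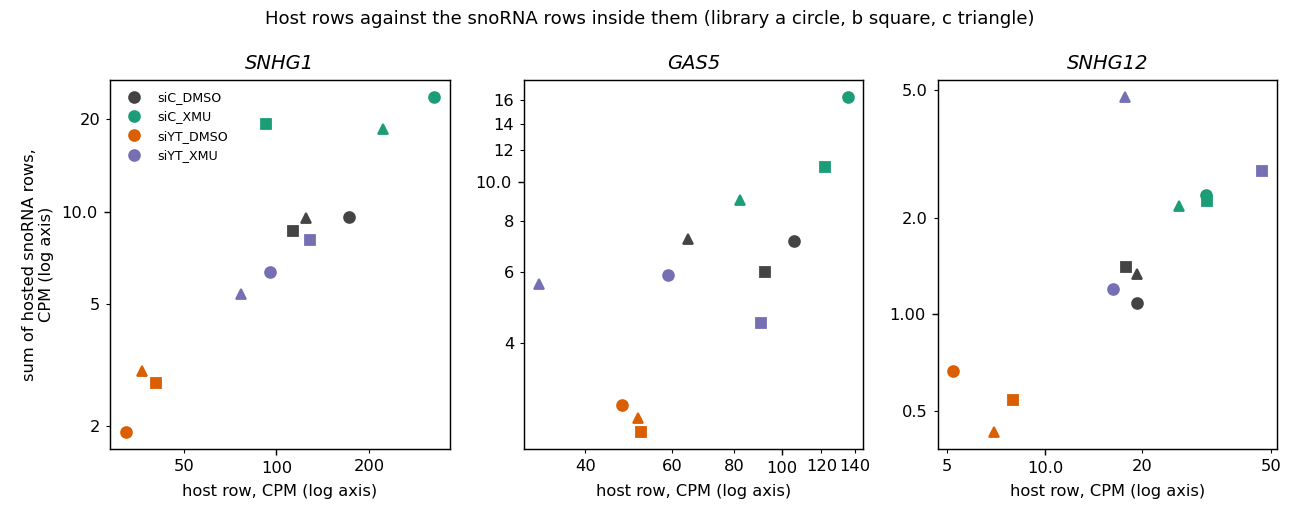
Level of the host row (horizontal axis) against the summed level of the snoRNA rows inside it (vertical axis), both in CPM on log axes, for SNHG1, GAS5 and SNHG12, with 1 symbol per library coloured by group. The siYT_DMSO libraries lie at the lower left for SNHG1 and SNHG12. For GAS5 they are the lowest on the vertical axis, while library c of siYT_XMU lies further left, at 32.3 CPM. Library b of siC_XMU stands out for SNHG1, with a host level of 92.6 CPM and a snoRNA sum of 19.2 CPM.

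Summed over its 8 snoRNA rows SNHG1 had 9.62, 8.66 and 9.53 CPM in control siRNA with DMSO, and 1.92, 2.77 and 3.03 CPM after the knockdown. With XMU-MP1 the sums were 23.7, 19.2 and 18.6 CPM in control siRNA and 6.37, 8.08 and 5.39 CPM after the knockdown. All 4 groups were apart from each other on this sum, in the order control with XMU-MP1, control with DMSO, knockdown with XMU-MP1 and knockdown with DMSO. The host row itself did not separate the first 2, because library b of control siRNA with XMU-MP1 had 92.6 CPM, below all 3 DMSO libraries. In that library the snoRNA rows amounted to 20.7% of the host row, against 7.28% and 8.35% in its 2 sister libraries and 5.60% to 7.64% in DMSO.

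GAS5 gave the same order of group means over its 11 rows. The sums were 7.14, 6.00 and 7.22 CPM in control siRNA with DMSO and 16.3, 10.9 and 9.03 CPM with XMU-MP1. After the knockdown they were 2.79, 2.40 and 2.60 CPM, and 5.90, 4.49 and 5.59 CPM with XMU-MP1. No library of one group reached into another, whereas the host row overlapped between DMSO and XMU-MP1 in both siRNA arms. These sums were not tested, and an exact permutation test of 3 against 3 could not go below p = 0.1.

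With XMU-MP1 in control cells 25 of the 27 tested snoRNA rows had a log2 fold change above 0 (24 on the FPKM scales), with a median of 0.83 and none called by edgeR, 4 with an unadjusted p under 0.05, 3 called higher by DESeq2 and 6 by voom. Of the 122 tested snoRNA rows outside the hosts 78 were above 0 in control cells, with a median of 0.23 and none called. After the knockdown XMU-MP1 raised 3 of the 27 rows, SNORD28, SNORD29 and SNORD99, against 4.19% of all genes. Without library c 6 were called higher, against 6.65% of all genes. With all libraries 25 of the 27 were above 0 there, with a median of 1.29. Of the 122 outside the hosts 97 were above 0, with a median of 0.98 and 3 called higher. SNORD99 went from 4, 6 and 9 counts to 21, 64 and 10 (log2 fold change 3.13 ± 0.68 (SE), adjusted p = 0.0117), and its host SNHG12 rose in the same comparison. The knockdown with XMU-MP1 lowered 4 rows, SNORD22, SNORD29, SNORD30 and SNORA9, and raised SNORA73A, where 18.6% of all tested genes were called lower and 17.7% higher. Of the 122 rows outside the hosts 3 were called lower and 10 higher, and their median was -0.24, against -1.09 for the 27. Without library c 7 of the 27 were called lower, against 18.7% of all genes. SNORD27, SNORD28, SNORD26 and SNORD76 joined SNORD22, SNORD30 and SNORA9, while SNORD29 missed the threshold (adjusted p = 0.0534). SNORA9, inside SNHG15, had 19, 7 and 24 counts in control siRNA and 0 in all 3 knockdown libraries, where 3 counts would be 0.0880, 0.0580 and 0.622 CPM. This row also passed the filter on low counts through control libraries alone.

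The call on SNORA73A was made by 1 library. SNORA73A and its near copy SNORA73B, both inside SNHG3, had 332 and 378 counts in library c of YAP/TAZ siRNA with XMU-MP1, its 2 sister libraries having 82 and 54, and 110 and 25. Their sum came to 1365% of the SNHG3 row in library c, against 3.43% to 104% in the other 11. Without library c none of the 27 tested snoRNA rows inside the hosts was called higher by the knockdown with XMU-MP1. The 2 genes share stretches of up to 54 identical bases, so the split of reads between them is uncertain.

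Protein-coding genes lie beside or across several hosts, and counting by strand is not stated in the sources used here. Distances between starts are taken from the rows of the deposited table. For GAS5, SNHG12 and ZFAS1 these differ from the RefSeq starts printed above. SLC3A2, which encodes the heavy chain of an amino acid transporter, starts 224 bases from SNHG1 on the other strand. It fell with the knockdown in DMSO by 1.09 ± 0.22 on the log2 scale (SE, adjusted p = 0.00267) and with XMU-MP1 by 0.83 ± 0.22 (SE, adjusted p = 0.0117). It was not called for XMU-MP1 in either arm (log2 fold changes -0.07 and 0.19). RCC1, the guanine nucleotide exchange factor of Ran, shares its strand and start region with SNHG3, the starts being 100 bases apart. It was at 196, 187 and 191 CPM in control siRNA with DMSO and 37.4, 45.3 and 34.7 CPM after the knockdown, and it rose with XMU-MP1 after the knockdown to 48.8, 73.9 and 67.8 CPM. Its log2 fold changes were -2.29 ± 0.19 and 0.70 ± 0.18 (SE), with adjusted p-values of 6.20e-06 and 0.0263, the second being 0.0441 without library c. As RCC1 overlaps SNHG3 on the same strand, how the authors' counting divided their reads is uncertain.

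ZNFX1, a helicase gene that starts 121 bases from ZFAS1 on the other strand, was at 73.7, 92.2 and 91.5 CPM in control siRNA with DMSO and 108, 156 and 151 CPM after the knockdown, a rise of 0.69 ± 0.21 (log2, SE, adjusted p = 0.0264), and with XMU-MP1 after the knockdown it fell by 1.0 ± 0.22 on the log2 scale (adjusted p = 0.0109). ZFAS1 was not called in either comparison, with log2 fold changes of -0.41 and 0.56. In the other 2 comparisons neither was called, ZNFX1 being at -0.34 and ZFAS1 at -0.33 for the knockdown with XMU-MP1, and at 0.03 and 0.49 for XMU-MP1 in control cells. ZBTB37, 91 bases from the 5′ end of the GAS5 row, and TRNAU1AP, which overlaps the end of SNHG12, were not called in any comparison. GAS5-AS1 across GAS5 and MCMDC2 across SNHG6 lay at no more than 1.36 CPM in every library and were not called, and LOC107986622 beside SNHG5 was at 0.

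**Figure D4:**
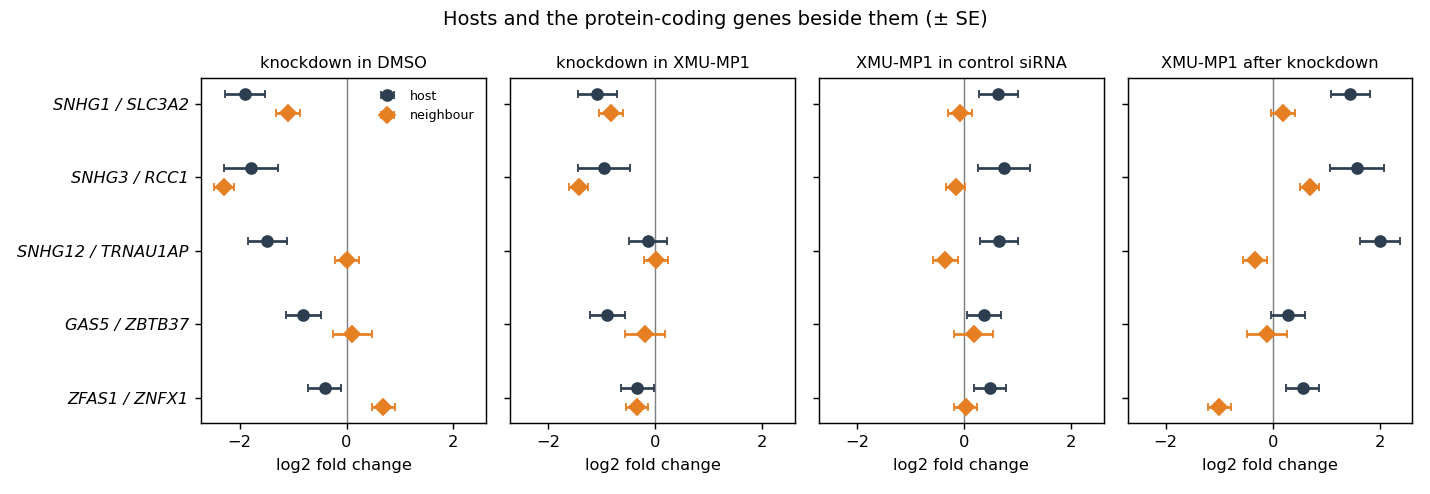
Log2 fold changes with their SE of 5 hosts (circles) and of the protein-coding gene beside or across each (diamonds) in the 4 comparisons. SLC3A2 and RCC1 lie below 0 with their hosts for both knockdown comparisons, and ZNFX1 lies on the other side of 0 from ZFAS1 for the knockdown in DMSO and for XMU-MP1 after the knockdown.

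Related gene lists give the setting. Beside their counts, 16.0% of all tested genes were called lower and 16.1% higher for the knockdown in DMSO. The shares were 18.6% and 17.7% for the knockdown with XMU-MP1, and 5.26% and 4.0% for XMU-MP1 in control cells. For XMU-MP1 after the knockdown they were 7.92% and 4.19%, and 8.37% and 6.65% without library c. Of 15 tested noncoding hosts outside the 10 the knockdown in DMSO lowered 4, DANCR, SNHG17, SNHG4 and SNHG19, and raised none, and 5 had an unadjusted p under 0.05. DESeq2 called 5 lower and 0 higher. SNHG17 had the largest log2 fold change of those called, -1.98 ± 0.43 (SE, adjusted p = 0.00398), and DANCR, an antidifferentiation noncoding RNA, went from 135 ± 5.21 to 58.3 ± 11.5 CPM (SD, n = 3, adjusted p = 0.00394). The list's median was -0.94. With XMU-MP1 in control cells the median was -0.37, against 0.43 for the 10, and SNHG4 was called lower (log2 fold change -1.25 ± 0.36 (SE), adjusted p = 0.0495). For the knockdown with XMU-MP1 SNHG17 alone was called, lower, and after the knockdown XMU-MP1 called none (1 with an unadjusted p under 0.05, 1 called higher by DESeq2, and 2 called higher without library c).

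Of 20 ribosomal protein genes that host snoRNAs, which are mRNAs with pyrimidine starts, the knockdown in DMSO lowered RPL3 and raised none, with a median of -0.20. Only 2 had an unadjusted p under 0.05, and DESeq2 likewise called 1 lower. All 20 had a log2 fold change above 0 for XMU-MP1 in both siRNA arms, with medians of 0.20 and 0.37, but on the log2(FPKM + 1) scale 18 were above 0 in control cells and 17 were below 0 after the knockdown, with a median of -0.10. None was called by edgeR. Without library c all 20 were called higher by XMU-MP1 after the knockdown, with a median of 0.65, against 6.65% of all genes. In that comparison the unadjusted p was under 0.05 for 2 of the 20 with all libraries, and DESeq2 called 4.

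The 18 other protein-coding hosts were mixed. For the knockdown in DMSO 8 fell and 2 rose, with a median of -0.44. NOP56 fell by 2.12 ± 0.27, DKC1 by 1.83 ± 0.18, WDR43 by 1.59 ± 0.26 and NCL by 1.57 ± 0.14 on the log2 scale (SE), all with adjusted p-values of 0.000687 or less. After the knockdown XMU-MP1 raised 4 and lowered 2, NCL by 0.89 ± 0.14 and NOP56 by 1.37 ± 0.26 among those higher and NAP1L4, which fell by 1.23 ± 0.16, among those lower. Without library c 9 were called higher and 2 lower, with a median of 0.55 in place of 0.42. With XMU-MP1 the knockdown lowered 7 and raised 2, and XMU-MP1 in control cells raised 2 and lowered 2.

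Of 20 core snoRNP proteins and assembly factors, which bind and assemble snoRNAs, 11 fell and 1 rose with the knockdown in DMSO, and the median was -1.16. NOP58, the box C/D core protein, went from 158 ± 2.48 to 16.9 ± 3.28 CPM (SD, n = 3), a fall of 3.23 ± 0.24 on the log2 scale (SE, adjusted p = 3.83e-06). TCOF1 fell by 2.87 ± 0.27, DKC1, the pseudouridine synthase (also in the list before), by 1.83 ± 0.18 and NOLC1 by 1.54 ± 0.15 (SE). XMU-MP1 after the knockdown raised NOP56 and NOLC1, and without library c 4 were called higher and TCOF1 lower. In control cells it lowered DKC1, GAR1 and TCOF1 and raised none, where voom called 2 higher and 8 lower. NOP58 was at 13.7 ± 3.94 CPM with XMU-MP1 after the knockdown and was not called there. With XMU-MP1 the knockdown lowered 9 and raised 1.

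The 12 nonsense-mediated decay factors had a median of -0.04 for the knockdown in DMSO. UPF3B and DHX34 were called lower, 2 of the 12, which is near the 16.0% of all tested genes. UPF3B, which binds the exon junction complex, fell by 1.29 ± 0.25 on the log2 scale (SE, adjusted p = 0.00177). With XMU-MP1 the knockdown lowered UPF3B, SMG9 and SMG8. XMU-MP1 raised UPF1, the central helicase of the pathway, by 0.87 ± 0.21 in control cells (SE, adjusted p = 0.0254) and after the knockdown lowered SMG9, whose log2 fold change was -1.67 ± 0.39 (SE, adjusted p = 0.0176). The levels of the hosts were not tested against these factors.

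**Figure D5:**
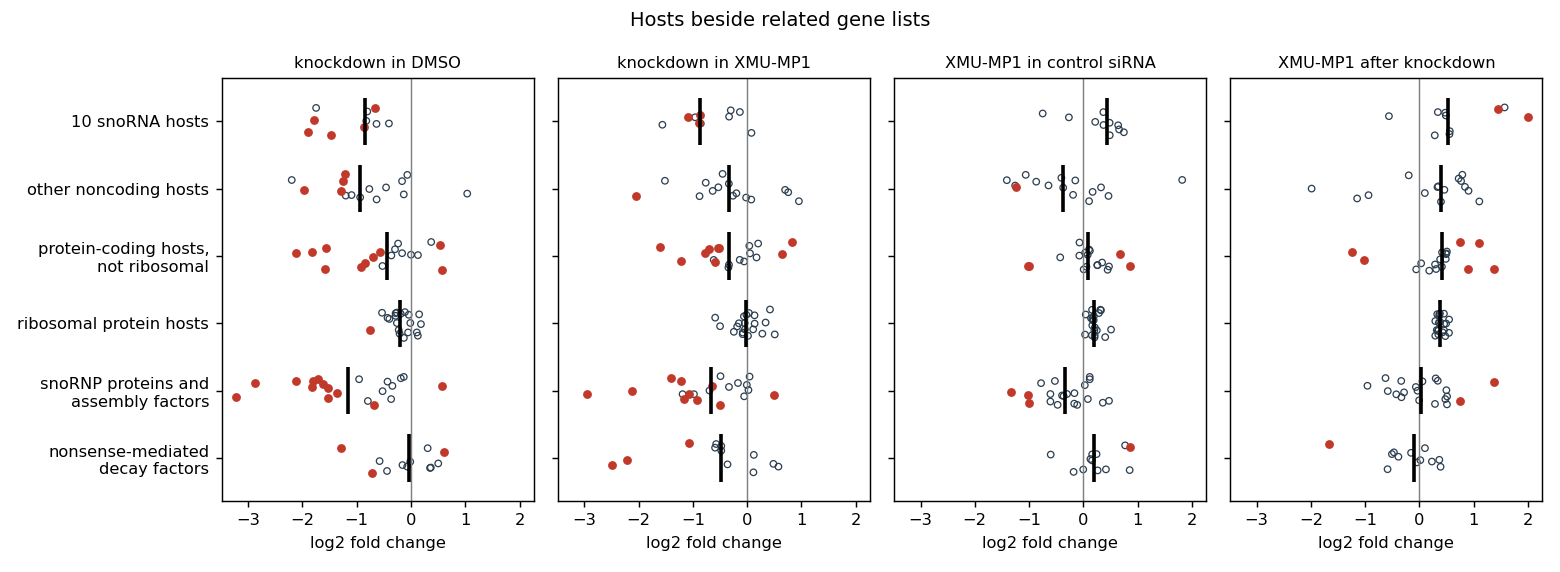
Log2 fold changes of the 10 hosts and of the tested genes of 5 related lists in the 4 comparisons, filled red where the adjusted p was under 0.05, with the median of each list as a black line. The medians of the 10 hosts, of the other noncoding hosts and of the snoRNP proteins lie at -0.85, -0.94 and -1.16 for the knockdown in DMSO, and that of the ribosomal protein hosts at -0.20.

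MYC, which drives genes of ribosome synthesis in many cells, was at 268 to 321 CPM in control siRNA with DMSO and 95.1 to 130 CPM after the knockdown, and XMU-MP1 lowered it to 57.1 to 74.7 and 12.4 to 17.8 CPM. Its log2 fold changes were -1.38 ± 0.19 and -2.26 ± 0.19 for the knockdown with DMSO and with XMU-MP1, and -2.10 ± 0.19 and -2.98 ± 0.20 for XMU-MP1 in control and in knockdown cells (SE), and it was called lower in each. Without library c it was at -2.43 for the knockdown with XMU-MP1 and at -3.15 for XMU-MP1 in knockdown cells.

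The hosts varied together to different degrees. Over the 12 libraries Pearson's r of log2 CPM between pairs of hosts had a median of 0.72 and ran from 0.17 to 0.95 over 45 pairs. Without library c the median was 0.78, with a range of 0.09 to 0.93. These points share groups, letters and library depth, so the values are a description. The 5 other genes whose log2 CPM was most like the mean standardized level of the 10 were CYCS, with r = 0.98, RPL3 (0.98), PDAP1 (0.97), C1QBP (0.97) and RPL22L1 (0.97), out of 6808 genes with a mean of at least 5 FPKM. Without library c RPL3, CYCS and PDAP1 ranked 1, 3 and 4, while C1QBP and RPL22L1 ranked 7 and 13. CYCS encodes cytochrome c and RPL3 a ribosomal protein that itself hosts snoRNAs. As both were picked for following the hosts over these same libraries, their changes were largely set by that choice and are a description. Both fell with the knockdown in DMSO, CYCS from 325 ± 41.9 to 166 ± 3.08 CPM and RPL3 from 2458 ± 52.0 to 1460 ± 152 CPM (SD, n = 3). CYCS had an adjusted p of 0.00736 and RPL3 one of 0.0448. For XMU-MP1 after the knockdown neither was called, with adjusted p-values of 0.105 and 0.266, and for both the value of library c, 163 and 1183 CPM, was the lowest of its group. Without library c both were called higher, with adjusted p-values of 0.00847 and 0.0109.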

How the data were processed

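The deposited gene table holds, for each of 12 libraries, a read count and an FPKM per gene. Per the submitters' processing notes the tools were cutadapt, FastQC, HISAT2, StringTie and edgeR on GRCh38.p13. The labels describe TruSeq stranded poly(A) libraries, while strand use in counting is not given in the sources used here. The FPKM values were made by the authors and hold 0.0001 wherever the deposited count is 0. From the counts, edgeR 4.0.16 (R 4.3.3) was run with filterByExpr (18143 genes kept), TMM scaling and a quasi-likelihood fit of 4 group means over all 12 libraries. P-values were adjusted by Benjamini-Hochberg over all genes tested and called under 0.05. The fit was tested on simulated data. CPM use TMM-scaled library sizes. Alternatives were no filter, DESeq2 size factors, counts without rRNA rows and SLCO5A1, DESeq2 1.42.0, limma 3.58.1 voom with sample weights, limma on log2(FPKM + 1) and log2(FPKM + 0.1), a block on the letters, only the groups compared, and leaving out each library. The 3-count floor covers counting error only. The 10 hosts were always named. In each related list up to 4 called genes with the smallest adjusted p per comparison, the genes adjoining a host (overlapping, or starting within 5 kb on the other strand) and the 5 genes most like the hosts were named. SLCO5A1, COL1A2, CD68 and CD14 were named after their values were seen. The members and lists were chosen with earlier results of these data known. Some single genes of the leukocyte and decay lists are not reported here.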

Additional observations from a re-analysis of the deposited data

How the results depend on the processing

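No call on the hosts changed sign under any alternative, and all 10 were negative for the knockdown in DMSO in each. For that comparison 5 hosts were called lower, 8 by DESeq2, 9 by voom, 9 with only the groups compared, 8 with a block on the replicate letters, and 2 to 9 when single libraries were left out (2 without control a, 3 without knockdown a or b, 9 without library c of YAP/TAZ siRNA with XMU-MP1). For the knockdown with XMU-MP1 3 were called lower, 5 by DESeq2, 5 on each FPKM scale, 0 by voom, 0 with only the groups compared, and 0 to 6 when single libraries were left out. Of these, control a gave 0, knockdown b gave 6, and control b, knockdown c, DMSO control b and DMSO knockdown b and c gave 1 each. For XMU-MP1 in control cells voom and the fit to the groups compared each called 1 higher and 1 lower, and leaving out single libraries called 0. For XMU-MP1 after the knockdown 2 were called higher, 4 by DESeq2, 1 on each FPKM scale, and 1 to 7 when single libraries were left out (7 without library c, 1 without treated b or any of the 3 DMSO libraries). For the interaction DESeq2 called 2 higher, and leaving out single libraries called 0. The cause was not tested. The block changed no other count of hosts by over 1.5 times, but for the knockdown with XMU-MP1 SNHG1 lost its call (log2 fold change -1.02, adjusted p = 0.0609) and SNHG8 gained one (adjusted p = 0.0346). Deviations of same-letter libraries correlated by 0.02 to 0.28, over 0.1 in 9 of 18 pairs. For each of the 12 libraries the mean correlation with libraries of the other groups was highest for its own letter. Deviations were thus shared within letters to a small degree. The labels do not say what the letters stand for, and the reported fit does not use them. FPKM, which carry no TMM scaling, shifted the median of all genes by up to -0.48 and the split of calls over all genes, from 2929 higher and 2897 lower to 2011 and 3661 at log2(FPKM + 1) for the knockdown in DMSO, and from 3219 and 3381 to 1666 and 5441 with XMU-MP1. At log2(FPKM + 0.1) these were 1918 and 3267, and 1717 and 5387. Library c, with 8243351 counts, gave SNHG15 0 counts and most limits the calls with XMU-MP1 after the knockdown.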
